A study of Mus musculus with 12 samples.

Results

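The mitochondrial Slc25 carriers were read as every gene probe on the array whose transcript accession maps to a mouse symbol that begins with Slc25a, apart from 3 genes with that prefix that are not analysed here. The rule found 55 probes of 44 genes, among 55681 gene probes and 21613 named genes on the array. A gene was tested where both arrays of some group read a probe of it well above background, which held for 37 of the 44 carriers and for 13901 genes in all. All 12 arrays detected 32 of the 37. The other 7, Slc25a2, Slc25a18, Slc25a31, Slc25a41, Slc25a43, Slc25a53 and Slc25a54, were well above background on 0 arrays and have no value here. No measured value was used to choose the members. Since the set of 37 passed a filter on signal, counts over it describe the measured carriers only.

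Slc25 proteins form the largest family of mitochondrial solute carriers. Most sit in the inner mitochondrial membrane and exchange nucleotides, phosphate, carboxylates, amino acids, cofactors or metal ions between the cytosol and the matrix. They supply the ATP synthase with ADP and phosphate, carry citrate out for fatty acid synthesis, and run the shuttles that move reducing equivalents. A few members work elsewhere: Slc25a17 lies in peroxisomes and Slc25a46 in the outer mitochondrial membrane. In liver these exchanges link fatty acid oxidation, gluconeogenesis, the urea cycle and one-carbon metabolism.

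The livers came from male C57BL/6NJcl mice bought at 5 weeks of age and kept for 1 week before the diets began. CDAHFD mice received a high-fat diet made of L-amino acids, without choline, with 0.1% methionine by weight and 60 kcal% fat, which is used to induce steatohepatitis. Control mice received CE-2 chow, so that fat, choline, methionine and the remaining composition of the 2 diets cannot be told apart. Livers were taken after 1, 2 or 6 weeks on the diet, at 7, 8 and 12 weeks of age, and labelled cRNA from 150 ng of total RNA was hybridised to one-colour Agilent arrays. Each of the 6 groups held 2 arrays. The labels do not say whether these came from separate mice, so the spread behind each p-value is that of arrays and may be technical only, and their small number limits the precision.

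Signals are given on the log2 scale relative to the 75th percentile of each array. A diet difference is CDAHFD minus control on that scale after the median difference over all genes was subtracted. It is given with the standard error (SE) of the limma fit, and a carrier was called where the adjusted p of that fit was under 0.05. The share of probes detected above background was 45.4 to 49.7% on CDAHFD arrays and 40.4 to 44.4% on control arrays. One control array, replicate 1 at 1 week, stood apart: it was dim in 6 blocks of spots, and these blocks held the probes of 4 carriers, Slc25a12, Slc25a17, Slc25a21 and Slc25a29. The first principal component, with 64.7% of the variance, separated the diets, and the second, with 14.8%, was set by that control array. Summed hepatocyte marker signal, over 8 genes, was 118 to 219 on CDAHFD arrays and 226 to 407 on control arrays, on the linear scale relative to the 75th percentile. Summed macrophage signal, over 8 genes, was 23.1 to 41.7 on CDAHFD arrays and 7.49 to 16.2 on control arrays. Stellate cell markers summed to 16.2 to 29.9 on CDAHFD arrays against 7.84 to 10.2 on control arrays, erythroid markers to 17.4 to 28.5 against 46.5 to 68.7, and cell cycle genes to 1.29 to 2.74 against 0.219 to 0.367. On average over the weeks 8 of 8 hepatocyte and 5 of 5 measured erythroid genes were called lower, beside 25.6% of all genes. Called higher, beside 35.6% of all genes, were 7 of 8 macrophage, 7 of 8 stellate and 8 of 8 cell cycle genes. The same held for 3 of 4 B cell, 3 of 5 cholangiocyte and 4 of 6 neutrophil genes, with 1 neutrophil gene lower. Of these, Gpnmb, Top2a, Cdk1 and Mpo were above background on 0 control arrays, and Ccnb1 and Retnlg on 1. These genes passed the filter on signal only through CDAHFD groups, so that a difference was built into their selection. Endothelial sums, at 5.71 to 8.18 on CDAHFD and 6.88 to 8.73 on control arrays, and T and NK cell sums overlapped between the diets, and 0 of 6 muscle and adipose genes were measured. On average 1 of 6 endothelial genes was called higher and 2 lower, and 2 of 5 T and NK cell genes higher and 2 lower. Klrd1, called higher, was above background on 1 control array. The part of these shifts in the carrier differences below was not tested, and in whole liver fewer cells of a type and less RNA per cell cannot be told apart.

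The measured carriers did not move as a block. At 1 week 5 of 37 were higher in CDAHFD livers and 7 lower, where 40.9% of all tested genes were called, 25.8% higher and 15.1% lower. At 2 weeks 5 were higher and 4 lower, where 37.7% of all genes were called, 23% higher and 14.7% lower. At 6 weeks 4 were higher and 9 lower, where 40.5% of all genes were called, 24.5% higher and 16% lower. In the average of the weeks 5 were higher and 14 lower, against 61.2% of all genes called, 35.6% higher and 25.6% lower.

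Over the weeks 18 of the 37 carriers were called at least once, 6 of them only upward and 12 only downward, and 0 carriers were called in both directions. The shares of all genes called at least once, in a single direction or at no week were not counted. These counts, and that of carriers called at no week, thus describe the carriers only and cannot be set against all genes. Slc25a4, Slc25a24, Slc25a27 and Slc25a36 rose at every week, as did 15.2% of all genes. Slc25a3 and Slc25a23 fell at every week, as did 7.05% of all genes. For Slc25a4, Slc25a12, Slc25a24, Slc25a27 and Slc25a36 all 6 CDAHFD arrays lay above all 6 control arrays, a pattern held by 21.1% of all genes. For 4 carriers, Slc25a1, Slc25a17 and Slc25a23 among them, all 6 CDAHFD arrays lay below all 6 control arrays, as for 11% of all genes. Slc25a27 and Slc25a36 passed the detection filter only through the CDAHFD groups, where they are high, and were above background on 0 or 1 of the 2 control arrays of each week. A difference was thus built into their selection, and their values are a description. The remaining 19 measured carriers were called at no week. A call together with a difference of at least 2-fold was reached by 6 carriers at 1 week, 5 at 2 weeks and 6 at 6 weeks, beside 17.7%, 17.6% and 19.9% of all genes.

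With each array left out in turn, 6 of the 12 calls at 1 week, 5 of the 9 at 2 weeks and 7 of the 13 at 6 weeks passed in every fit. Slc25a4, Slc25a23 and Slc25a24 were in all 3 of these sets. Slc25a27 was too, but a difference was built into its selection, so its place there is a description and no support. Without the control array that stood apart, 4 carriers were called higher and 5 lower at 1 week: the calls of Slc25a1, Slc25a10, Slc25a22 and Slc25a36 were lost, with adjusted p between 0.0503 and 0.163, and Slc25a21 was called lower, by -0.64 ± 0.17 with an adjusted p of 0.0416.

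**Figure D1:**
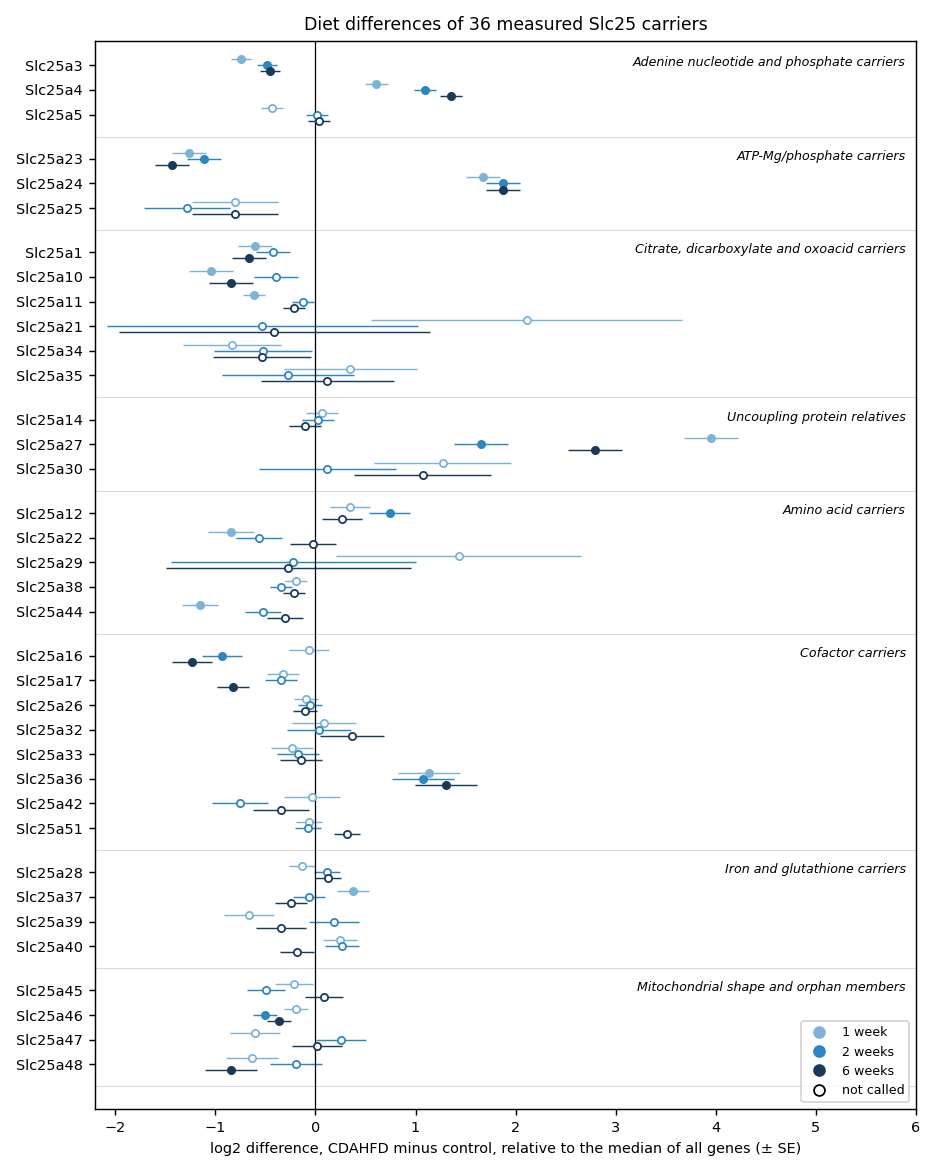
Diet difference of 36 of the 37 measured carriers at 1, 2 and 6 weeks, as CDAHFD minus control on the log2 scale after the median over all genes was subtracted, with bars for the SE of the fit, grouped by substrate. Filled points passed an adjusted p of 0.05 and open points did not. The points of Slc25a24, Slc25a27, Slc25a36 and Slc25a4 lie to the right of 0 at every week and those of Slc25a23 and Slc25a3 to the left, while the wide bars of Slc25a21 and Slc25a29 come with 1 dim control array.

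The median carrier difference was -0.19 at 1 week, -0.19 at 2 weeks and -0.21 at 6 weeks. At 1 week it was 0.03 after normexp background correction and 0.04 without the filter on dim probes, then over 44 carriers. At each week 13 of the 37 carriers lay above 0, and of the 33 outside the dim blocks 10, 12 and 12 at 1, 2 and 6 weeks. The 13 at 1 week included Slc25a21 and Slc25a29, which were -0.63 and -0.69 with the dim spots left out. With all genes ranked by signal and split into 5 equal classes, the brightest class had a median difference of -0.35 at 1 week, -0.27 at 2 weeks and -0.24 at 6 weeks. The dimmest class had 0.28, 0.32 and 0.39 at these weeks. The 2 brightest classes held 11 and 10 of the carriers and the dimmest held 3, and the part of signal level in the carrier median was not tested. The number of carriers called lower depended on scaling: with the percentile over all probes the median of all genes at 1 week was -0.16 in place of 0.13, and 4 carriers were higher and 15 lower. Over all genes 63%, 61%, 60.5% and 58.2% of the calls at 1, 2 and 6 weeks and in the average were upward. That scaling put 36.1%, 39.3%, 38.1% and 36.3% upward, median centring 45.3%, 49%, 48.2% and 44.7%, and normexp 33.1%, 48.3%, 53.4% and 35.3%.

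**Figure D2:**
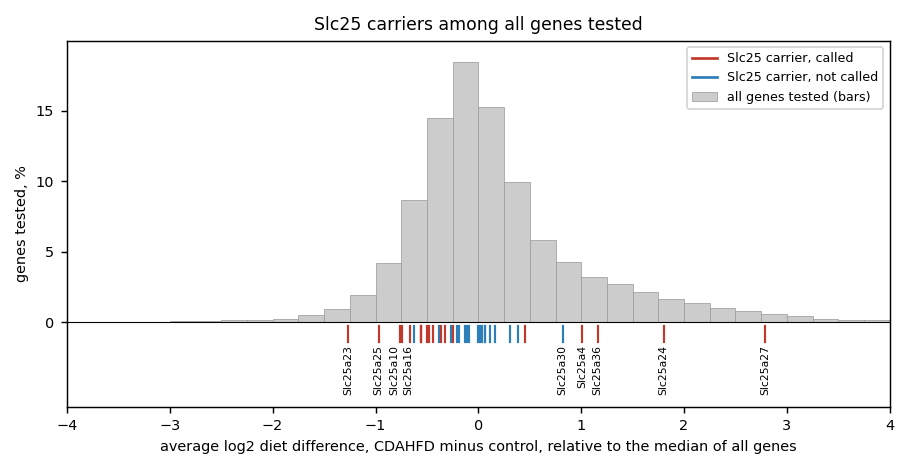
Average diet difference of the 3 weeks, as CDAHFD minus control on the log2 scale relative to the median of all genes, for all 13901 tested genes as grey bars in percent of genes, with each measured carrier as a line below the axis. Red lines are carriers that passed an adjusted p of 0.05 and blue lines those that did not. Slc25a27 at 2.79 and Slc25a24 at 1.8 lie far to the right, Slc25a23 at -1.27 is the lowest carrier, and most carriers lie between -0.8 and 0.5.

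Among the nucleotide and phosphate carriers, Slc25a4 rose and Slc25a3 fell at every week, and Slc25a5 was called at no week. Slc25a4 is adenine nucleotide translocase 1, the exchanger of ADP and ATP that is most abundant in heart and skeletal muscle. On CDAHFD arrays it read -0.11 and -0.33 at 1 week, 0.13 and 0.19 at 2 weeks and 0.29 and 0.42 at 6 weeks. On control arrays it read -0.97 and -0.95 at 1 week, -1.05 and -0.93 at 2 weeks and -1.04 and -1.03 at 6 weeks. Every CDAHFD array lay above every control array, and the CDAHFD values at 6 weeks were above those at 1 week while the control values stayed within a narrow band. The diet difference was 0.61 ± 0.11 (SE) at 1 week, with an adjusted p of 0.000527, 1.09 ± 0.11 at 2 weeks, with 2.51e-05, and 1.35 ± 0.11 at 6 weeks, with 5.85e-06 (limma, n = 2 per group). These differences equal 1.53-fold, 2.13-fold and 2.55-fold.

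Slc25a5 is adenine nucleotide translocase 2, the form that is widely expressed and is the main one in liver. It read 2 and 2.07 on CDAHFD arrays at 1 week, 2.22 and 2.38 at 2 weeks and 2.46 and 2.33 at 6 weeks. The control arrays gave 2.39 and 2.29 at 1 week, 2.12 and 2.32 at 2 weeks and 2.26 and 2.37 at 6 weeks. The CDAHFD arrays lay below the control arrays at 1 week, and the groups overlapped at 2 and at 6 weeks. It differed between the diets by -0.43 ± 0.11 at 1 week, with an adjusted p of 0.0528 in the limma fit, 0.02 ± 0.11 at 2 weeks and 0.04 ± 0.11 at 6 weeks. The difference at 1 week passed the threshold with the percentile over all probes, at an adjusted p of 0.00276, and the average of -0.13 was 0.15 after quantile and 0.08 after cyclic loess normalization, with adjusted p of 0.0382 and 0.0384. That average was -0.13 and called lower with the percentile over all probes and with median centring, at adjusted p of 0.00317 and 0.0277.

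The promoters of the 2 translocase genes are shown because the genes share a protein function while Slc25a4 was called at every week and Slc25a5 at none. Each stretch spans 300 bases around the start of the gene in RefSeq, build GRCm38.p6, most of them upstream, and is printed 5′ to 3′ on the strand of the gene. Slc25a4 lies at chr8:46211013-46211312 on the minus strand Slc25a5 at chrX:36795347-36795646 on the plus strand. Capitals mark each GC box, GGGCGG or its reverse complement CCGCCC, and each CCAAT box, CCAAT or its reverse complement ATTGG, and no 2 marked motifs overlap.
Slc25a4: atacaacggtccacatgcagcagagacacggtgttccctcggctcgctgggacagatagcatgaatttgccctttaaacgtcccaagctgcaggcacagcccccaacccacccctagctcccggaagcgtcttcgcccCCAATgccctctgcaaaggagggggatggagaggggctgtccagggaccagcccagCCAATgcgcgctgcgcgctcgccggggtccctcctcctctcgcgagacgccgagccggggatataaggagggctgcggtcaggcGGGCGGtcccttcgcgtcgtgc
Slc25a5: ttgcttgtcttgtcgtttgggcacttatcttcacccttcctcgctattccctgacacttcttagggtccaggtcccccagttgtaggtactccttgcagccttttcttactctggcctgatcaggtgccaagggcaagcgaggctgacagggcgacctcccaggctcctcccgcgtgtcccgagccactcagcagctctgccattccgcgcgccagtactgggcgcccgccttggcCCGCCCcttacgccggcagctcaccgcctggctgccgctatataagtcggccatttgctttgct
The Slc25a4 stretch held 1 GC box and 2 CCAAT boxes, with 65.7% G and C. The Slc25a5 stretch held 1 GC box and 0 CCAAT boxes, with 61% G and C.

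Slc25a3, the carrier that brings phosphate into the matrix for ATP synthesis and also carries copper, fell at every week. The CDAHFD arrays gave 2.48 and 2.59 at 1 week, 2.36 and 2.37 at 2 weeks and 2.25 and 2.08 at 6 weeks. Control values were 3.19 and 3.1 at 1 week, 2.75 and 2.83 at 2 weeks and 2.6 and 2.55 at 6 weeks. The CDAHFD arrays were lower than the control arrays within each week, but both diets were lower at the later weeks, and over all 12 arrays the diets overlapped. The diet difference was -0.74 ± 0.1 at 1 week, with an adjusted p of 0.00101, -0.48 ± 0.1 at 2 weeks, with 0.00747, and -0.45 ± 0.1 at 6 weeks, with 0.00823 (limma). Without control replicate 1 at 6 weeks the last week's value was -0.42, with an adjusted p of 0.0592. A second probe of Slc25a3 gave -0.25, -0.21 and -0.52, called at 6 weeks with an adjusted p of 0.00743. Set against the controls of 2 and 6 weeks, the difference at 1 week was -0.21, with an adjusted p of 0.214. After quantile normalization it was -0.3 at 1 week and -0.18 at 2 weeks, with adjusted p of 0.0645 and 0.16, and after cyclic loess -0.26 at 2 weeks and -0.3 at 6 weeks, with 0.148 and 0.0574.

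The ATP-Mg/phosphate carriers exchange ATP-Mg for phosphate and so set the adenine nucleotide content of the matrix, and calcium binding to their N-terminal domain activates them. Slc25a24 rose and Slc25a23 fell at each week. On CDAHFD arrays Slc25a24 read -2.93 and -3.35 at 1 week, -2.81 and -2.72 at 2 weeks and -2.59 and -2.7 at 6 weeks. Its signal on control arrays was -4.98 and -4.9 at 1 week, -4.83 and -4.55 at 2 weeks and -4.56 and -4.55 at 6 weeks. The lowest CDAHFD array was above the highest control array by more than the spread within either diet. It differed between the diets by 1.67 ± 0.17 at 1 week, with an adjusted p of 4.31e-05, 1.87 ± 0.17 at 2 weeks, with 1.85e-05, and 1.87 ± 0.17 at 6 weeks, with 1.5e-05 (limma), or 3.18-fold, 3.66-fold and 3.66-fold. Under other processing these differences ranged from 0.86 to 1.93 at 1 week, 1.16 to 2.08 at 2 weeks and 1.27 to 2.04 at 6 weeks.

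Slc25a23 went the other way. It read -4.4 and -4.21 on CDAHFD arrays at 1 week, -4.41 and -4.32 at 2 weeks and -4.2 and -4.49 at 6 weeks. On control arrays it read -3.17 and -3.18 at 1 week, -3.48 and -3.15 at 2 weeks and -2.98 and -2.94 at 6 weeks. Every CDAHFD array was below every control array. The diet difference was -1.26 ± 0.17 at 1 week, with an adjusted p of 0.000515, -1.11 ± 0.17 at 2 weeks, with 0.00071, and -1.43 ± 0.17 at 6 weeks, with 9.74e-05 (limma). Relative to the median of all genes, these differences equal 0.418, 0.464 and 0.372 times the control signal. Under other processing they ranged from -1.48 to -0.86 at 1 week, -1.28 to -0.67 at 2 weeks and -1.56 to -0.91 at 6 weeks.

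The third measured member of this group, Slc25a25, is the form whose transcript is induced by cAMP. It ranged between 0.22 and 1.9 on the 6 CDAHFD arrays, with a median of 1.32, and between 1.27 and 2.59 on the 6 control arrays, with a median of 2.22. Its average difference was -0.97 ± 0.25, with an adjusted p of 0.0145 in the limma fit. The weekly differences were -0.8, -1.28 and -0.8 and were not called. A second probe gave -0.83, -1.43 and -1.08, called at 2 and 6 weeks with adjusted p of 0.0103 and 0.031.

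The promoters of Slc25a24 and Slc25a23 are shown for the same comparison, since these 2 carriers of 1 substrate moved in opposite directions. Slc25a24 lies at chr3:109122899-109123198 on the plus strand Slc25a23 at chr17:57059814-57060113 on the minus strand, from RefSeq, build GRCm38.p6, with capitals marking GC boxes and CCAAT boxes as above. RefSeq lists 2 starts for Slc25a23, of which the first was used.
Slc25a24: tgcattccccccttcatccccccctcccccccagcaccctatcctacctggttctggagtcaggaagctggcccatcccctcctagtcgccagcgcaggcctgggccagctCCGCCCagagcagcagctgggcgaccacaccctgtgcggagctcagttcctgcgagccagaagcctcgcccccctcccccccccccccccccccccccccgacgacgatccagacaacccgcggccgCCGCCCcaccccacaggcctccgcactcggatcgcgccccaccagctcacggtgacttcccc
Slc25a23: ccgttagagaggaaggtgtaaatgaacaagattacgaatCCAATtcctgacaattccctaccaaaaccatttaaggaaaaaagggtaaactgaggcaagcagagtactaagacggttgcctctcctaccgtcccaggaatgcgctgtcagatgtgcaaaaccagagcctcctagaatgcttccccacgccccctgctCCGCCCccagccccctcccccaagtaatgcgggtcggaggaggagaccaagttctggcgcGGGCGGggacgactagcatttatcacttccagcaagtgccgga
The Slc25a24 stretch held 2 GC boxes and 0 CCAAT boxes, with 72.3% G and C. The Slc25a23 stretch held 2 GC boxes and 1 CCAAT box, with 54% G and C. Of the 37 measured carriers, 28 had a promoter entry, and 25 of the 28 held a GC box and 16 a CCAAT box. Over 32851 promoters of the same length, 35.7% held a GC box and 37.4% a CCAAT box. The cAMP response element TGACGTCA, found in 1.8% of all promoters, was in 1 of the 28, and the AP-1 motif TGANTCA, found in 7.8%, was in 1. These matches are letters in a window and are given as a description.

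**Figure D3:**
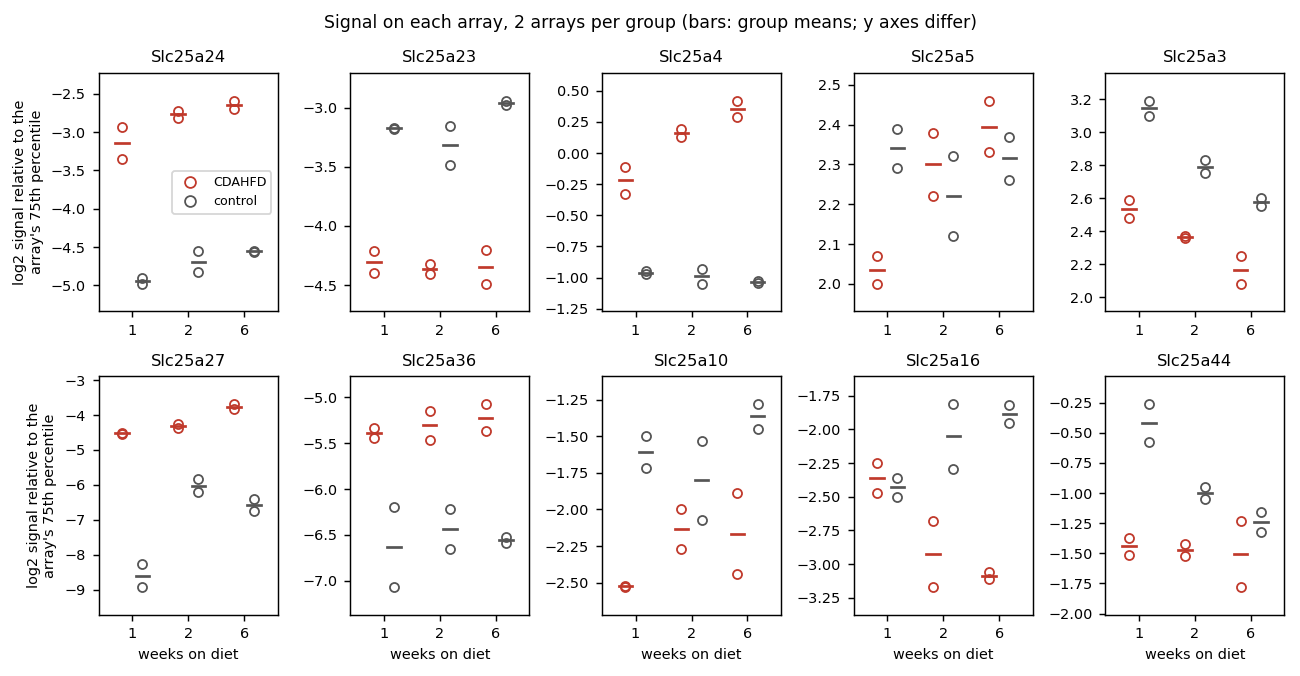
Signal on each array, as log2 relative to the 75th percentile of that array, for 10 carriers, by weeks on diet, with red circles for CDAHFD, grey circles for control and bars for the mean of the 2 arrays. The y axes differ between panels. The red circles of Slc25a24, Slc25a4, Slc25a27 and Slc25a36 lie above all grey circles and those of Slc25a23 below, while Slc25a5 overlaps at 2 and 6 weeks.

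The carriers of citrate, dicarboxylates and oxoacids held 6 measured members, of which 3 fell at 1 week, 0 were called at 2 weeks and 2 fell at 6 weeks, and 0 rose at any week, beside 40.9%, 37.7% and 40.5% of all genes called at 1, 2 and 6 weeks. Slc25a10, the dicarboxylate carrier that exchanges malate or succinate for phosphate, passed 2-fold at 1 week. On CDAHFD arrays it read -2.52 and -2.53 at 1 week, -2.27 and -2 at 2 weeks and -1.89 and -2.44 at 6 weeks. The control arrays gave -1.5 and -1.72 at 1 week, -2.07 and -1.53 at 2 weeks and -1.45 and -1.28 at 6 weeks. The CDAHFD arrays lay below the controls at 1 and 6 weeks, and the diets overlapped at 2 weeks. It differed between the diets by -1.04 ± 0.22 at 1 week, with an adjusted p of 0.00713, -0.39 ± 0.22 at 2 weeks, with 0.253, and -0.84 ± 0.22 at 6 weeks, with 0.0131 (limma). Without control replicate 1 at 1 week the value for 1 week was -0.93, with an adjusted p of 0.0503, and without CDAHFD replicate 2 or control replicate 2 at 6 weeks that for 6 weeks was -0.55 or -0.76, with 0.0968 or 0.0807.

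Slc25a1, the citrate carrier that exports citrate for cytosolic acetyl-CoA, ranged between 1.42 and 2.05 on CDAHFD arrays, with a median of 1.87, and between 2.19 and 2.49 on control arrays, with a median of 2.3. The diets did not overlap over all 12 arrays. Its difference was -0.6 ± 0.17 at 1 week, with an adjusted p of 0.0476, -0.42 ± 0.17 at 2 weeks, with 0.123, and -0.66 ± 0.17 at 6 weeks, with 0.0151 (limma). The call at 1 week ended when any 1 of 10 of the 12 arrays was left out, at adjusted p between 0.057 and 0.271, and that at 6 weeks without CDAHFD replicate 1 or control replicate 2 of that week, at 0.0857 and 0.0833. Slc25a11, the oxoglutarate carrier of the malate-aspartate shuttle, was lower at 1 week by -0.61 ± 0.11, with an adjusted p of 0.00443, and by -0.12 and -0.21 at 2 and 6 weeks, which were not called. Without CDAHFD replicate 1 at 1 week its value was -0.5, with an adjusted p of 0.0507. Slc25a21, which carries oxoadipate and related oxodicarboxylates, read -8.26 in the dim corner of control replicate 1 at 1 week, against -3.37 on the lowest other array. With those spots left out, Slc25a21 was -0.63 ± 0.17 at 1 week, with an adjusted p of 0.0305, -0.53 ± 0.14 at 2 weeks, with 0.019, and -0.41 ± 0.14 at 6 weeks, with 0.0508. With them it was not called, at 2.11 ± 1.55 at 1 week. Slc25a34 and Slc25a35, related to the oxaloacetate carrier of yeast, were not called, with average differences of -0.63 ± 0.29 and 0.06 ± 0.38, and Slc25a35 was well above background on 6 of 12 arrays. Without CDAHFD replicate 1 at 6 weeks, Slc25a34 was called lower at -0.94 on average and -1.47 at 6 weeks, with adjusted p of 9.65e-05 and 0.000814, and at -0.83 at 1 week, with 0.0103.

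Slc25a14, Slc25a27 and Slc25a30 are close relatives of the uncoupling proteins, which let protons or anions cross the inner membrane. Slc25a27, also called Ucp4 and known mainly from brain, read higher on CDAHFD arrays. The CDAHFD arrays gave -4.51 and -4.54 at 1 week, -4.27 and -4.36 at 2 weeks and -3.68 and -3.83 at 6 weeks, and it was well above background on all 6. Control values were -8.28 and -8.93 at 1 week, -6.2 and -5.84 at 2 weeks and -6.42 and -6.74 at 6 weeks. It was not well above background on either control array at 1 week, and at 2 and 6 weeks on 1 of the 2 controls each. Every CDAHFD array was above every control array.

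Before the median difference over all genes, 0.13 at 1 week, was subtracted, Slc25a27 was at least 4.29-fold higher in CDAHFD livers at 1 week. This bound set the CDAHFD mean against a floor on each control array. The floor was the dimmest signal that still counted as detected, or the signal of the probe itself if that was higher. With the median subtracted the bound is lower, and it holds for the main background correction only. The fit at that week had an adjusted p of 6e-06. Since Slc25a27 passed the filter on signal only through the CDAHFD groups, its adjusted p at each week are a description and no support. The fitted differences were 1.65 ± 0.27 at 2 weeks, with an adjusted p of 0.000625, and 2.79 ± 0.27 at 6 weeks, with 1.85e-05 (limma). At each of these weeks 1 of the 2 control arrays measured it. After normexp background correction with an offset of 50 they were 0.31 at 1 week and 0.39 at 2 weeks, with adjusted p of 0.76 and 0.524, and 0.97 at 6 weeks, still called, with 0.0175. Slc25a30, the kidney form, was 0.82 ± 0.39 higher on average without passing the test, at an adjusted p of 0.081, and its control arrays of 2 weeks lay far apart, at -2.52 and -4.13. Without control replicate 1 at 1 week, control replicate 1 at 2 weeks or CDAHFD replicate 2 at 6 weeks its average was 0.96, 1.09 or 1.06, and called, with adjusted p of 0.0442, 0.0239 and 0.045. Slc25a14, a brain form, differed by 0 ± 0.09 on average.

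The amino acid carriers held 5 measured members. Slc25a44, which carries branched-chain amino acids into mitochondria, fell at 1 week. On CDAHFD arrays it read -1.51 and -1.37 at 1 week, -1.42 and -1.52 at 2 weeks and -1.23 and -1.78 at 6 weeks. Its signal on control arrays was -0.26 and -0.58 at 1 week, -0.95 and -1.05 at 2 weeks and -1.16 and -1.32 at 6 weeks. The CDAHFD values stayed near the same level over the weeks while the control values were lower at each later week, and the diets overlapped at 6 weeks. The diet difference was -1.15 ± 0.18 at 1 week, with an adjusted p of 0.00136, -0.52 ± 0.18 at 2 weeks, with 0.0611, and -0.3 ± 0.18 at 6 weeks, with 0.26 (limma). A second probe of Slc25a44 gave -0.73, -0.8 and -1.07, all called, with adjusted p of 0.0096, 0.00321 and 0.000382, so the 2 probes disagreed on the later weeks. Against the controls of 2 and 6 weeks, the difference of the first probe at 1 week was -0.39, with an adjusted p of 0.133.

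Slc25a22, the glutamate carrier, was lower at 1 week by -0.84 ± 0.23, with an adjusted p of 0.0342 in the limma fit, and differed by -0.02 ± 0.23 at 6 weeks. Its call at 1 week ended when any 1 of 5 of the 12 arrays was left out, at adjusted p between 0.0501 and 0.163. Slc25a12, the calcium-regulated aspartate/glutamate carrier also called aralar, was the amino acid carrier that rose, by 0.74 ± 0.2 at 2 weeks, with an adjusted p of 0.00988, and by 0.45 ± 0.12 on average. Without CDAHFD replicate 2 or control replicate 1 at 2 weeks that week's value was 0.72 or 0.38, with adjusted p of 0.0554 and 0.054. Its 6 CDAHFD arrays, between -1.06 and -0.76, lay above its 6 control arrays, between -1.95 and -1.16. With the dim spots of the 1 control array left out, its average was 0.47 ± 0.13, with an adjusted p of 0.00473. Slc25a38, which carries glycine for haem synthesis, was lower by -0.25 ± 0.06 on average, with an adjusted p of 0.0379, and was called at no single week. That call ended when any 1 of 7 of the 12 arrays was left out, at adjusted p between 0.0654 and 0.102. Slc25a29, a carrier of basic amino acids, read -7.64 in the dim corner and was not called with those spots or without them, at an average of -0.39 ± 0.17 without them.

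Among 9 cofactor carriers 1 rose at each week, and 0, 1 and 3 fell at 1, 2 and 6 weeks, beside the same shares of all genes. Slc25a36, a carrier of pyrimidine nucleotides that mitochondria need for DNA and RNA synthesis, was the one called higher. The CDAHFD arrays gave -5.33 and -5.44 at 1 week, -5.46 and -5.15 at 2 weeks and -5.07 and -5.37 at 6 weeks, well above background on all 6. On control arrays it read -7.07 and -6.2 at 1 week, -6.65 and -6.22 at 2 weeks and -6.52 and -6.59 at 6 weeks, with 1 array well above background at 1 week, 1 at 2 weeks and 0 at 6 weeks. Every CDAHFD array was above every control array. The difference was 1.13 ± 0.31 at 1 week, with an adjusted p of 0.00949, and 1.07 ± 0.31 at 2 weeks, with 0.0162 (limma). Since Slc25a36 passed the filter on signal only through the CDAHFD groups, its adjusted p at each week are a description and no support. At 6 weeks the fitted difference of Slc25a36 was 1.3 ± 0.31, or 2.46-fold, with an adjusted p of 0.00633. Before the median over all genes was subtracted, its mean CDAHFD signal was 2.53-fold its mean control signal at that week. This ratio rests on control signals that were not well above background, and it is not a lower bound.

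Slc25a36 was not called after another background correction, and the cause was not tested. After normexp background correction its differences were -0.24, 0.01 and 0.23 at 1, 2 and 6 weeks, with adjusted p of 0.189, 0.724 and 0.717. Without CDAHFD replicate 1 at 1 week the difference at that week was 1.1, with an adjusted p of 0.0652, and without control replicate 1 it was 0.7, with 0.0682. At 2 weeks it was 0.92 without CDAHFD replicate 2 and 0.87 without control replicate 1, with adjusted p of 0.111 and 0.104. Slc25a33, the other pyrimidine nucleotide carrier, was not called, with an average of -0.19 ± 0.12, though without CDAHFD replicate 1 at 6 weeks its average was -0.31, with an adjusted p of 0.0499.

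Slc25a16, linked to coenzyme A transport, fell at 2 and 6 weeks. On CDAHFD arrays it read -2.25 and -2.47 at 1 week, -3.17 and -2.68 at 2 weeks and -3.06 and -3.11 at 6 weeks. The control arrays gave -2.5 and -2.36 at 1 week, -2.29 and -1.81 at 2 weeks and -1.95 and -1.82 at 6 weeks. The diets overlapped at 1 week and were separate at 2 and 6 weeks. It differed between the diets by -0.06 ± 0.2 at 1 week, -0.93 ± 0.2 at 2 weeks, with an adjusted p of 0.00566, and -1.23 ± 0.2 at 6 weeks, with 0.000807 (limma). Relative to the median of all genes, the differences at 2 and 6 weeks equal 0.524 and 0.426 times the control signal. Without CDAHFD replicate 1 at 2 weeks, the difference at that week was -0.69, with an adjusted p of 0.0584.

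Slc25a17, the peroxisomal carrier of coenzyme A and related cofactors, was lower by -0.82 ± 0.16 at 6 weeks, with an adjusted p of 0.00323, and its 6 CDAHFD arrays, between 0.33 and 1.13, lay below its 6 control arrays, between 1.23 and 1.49. Slc25a42, which carries coenzyme A, differed by -0.38 ± 0.16 on average and was not called. Its average was -0.55 and its 6-week difference -0.86 with CDAHFD replicate 1 of 6 weeks left out, both called, with adjusted p of 0.00384 and 0.0143. Slc25a26, which brings S-adenosylmethionine into mitochondria, differed by -0.09 ± 0.07 on average, with an adjusted p of 0.939. Slc25a32, which carries folate and FAD, was not called by its brighter probe, at 0.16 ± 0.18 on average, while a second probe gave 0.27, 0.59 and 0.69, with adjusted p of 0.0304 at 2 weeks and 0.0164 at 6 weeks. Without CDAHFD replicate 2 at 6 weeks the brighter probe was called higher, at 0.36 on average and 0.95 at 6 weeks, with adjusted p of 0.00489 and 0.00439. Slc25a51, the NAD carrier, was 0.32 ± 0.13 higher at 6 weeks, with an adjusted p of 0.0508, and a second probe gave 0.54 at 1 week, with 0.00876, so the probes disagreed.

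The 2 iron carriers and the 2 glutathione carriers were called in 1 of their 12 weekly tests, beside 40.9%, 37.7% and 40.5% of all genes at 1, 2 and 6 weeks. Slc25a37, mitoferrin 1, which supplies iron for haem and is abundant in erythroid cells, was higher by 0.38 ± 0.16 at 1 week, with an adjusted p of 0.0286, which was 0.0743 to 0.151 without control replicate 2 or either CDAHFD array of that week. It read 0.05 and -0.02 on CDAHFD arrays and -0.38 and -0.61 on control arrays at that week, and the diets overlapped at 2 and 6 weeks. A second probe differed by -0.09 at 1 week and was not called. The summed erythroid marker signal given above was lower on CDAHFD arrays, with 5 of 5 measured erythroid genes called lower on average, and the other 4 erythroid genes of the list were not measured. Slc25a28, mitoferrin 2, Slc25a39 and Slc25a40, the glutathione carriers, differed on average by 0.04 ± 0.07, -0.27 ± 0.14 and 0.11 ± 0.1. The average of Slc25a28 was 0.09 without CDAHFD replicate 1 at 6 weeks, with an adjusted p of 0.0216, and that of Slc25a39 was -0.39 without control replicate 1 at 2 weeks, with 0.0421.

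Of the members without a place in these groups, Slc25a46, a protein of the outer membrane that acts in mitochondrial fission and lipid transfer, was lower by -0.5 ± 0.12 at 2 weeks and by -0.36 ± 0.12 at 6 weeks, with adjusted p of 0.0118 and 0.0442 (limma). The call at 2 weeks ended without control replicate 2 or either CDAHFD array of that week, at 0.0533 to 0.0788, and that at 6 weeks when any 1 of 9 of the 12 arrays was left out, at 0.0524 to 0.279. A second probe of Slc25a46 gave -0.21, -0.48 and -0.72 and was not called, with adjusted p of 0.83, 0.276 and 0.0779 at 1, 2 and 6 weeks and 0.055 on average. Slc25a48, described as a mitochondrial choline carrier, was lower by -0.84 ± 0.26 at 6 weeks, with an adjusted p of 0.0314, and of 0.104 to 0.201 without either control array or CDAHFD replicate 1 of that week. It read -4.86 and -4.2 on CDAHFD arrays and -3.74 and -3.72 on control arrays at 6 weeks, and the diets overlapped at 1 and 2 weeks. Slc25a47, a carrier known mainly from liver, read between 3.5 and 4.52 on CDAHFD arrays and between 3.31 and 4.14 on control arrays, and differed by -0.11 ± 0.15 on average. Slc25a45 differed by -0.21 ± 0.11 on average and was not called.

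A change of the diet difference between weeks was called for 1 carrier, Slc25a27, with an adjusted p of 0.0284 in the limma F test. Of all genes 2.33% were called in this test, and 6 carriers had an unadjusted p under 0.05. For Slc25a27 this F test used control signals of 1 week that were not well above background. The carrier also passed the filter on signal only through the CDAHFD groups. With 1 array left out its adjusted p lay between 0.0189 and 0.116, and it missed the threshold when any 1 of 6 of the 12 arrays was left out: both CDAHFD arrays of 1 week, both of 2 weeks, and both control arrays of 6 weeks. In the comparison of 6 weeks with 1 week, where 5.27% of all genes were called, 2 carriers were called. The difference of Slc25a4 was larger at 6 weeks, by 0.68 ± 0.15, with an adjusted p of 0.0389, and that of Slc25a16 was more negative, by -1.24 ± 0.28, with 0.032. The call of Slc25a4 ended when any 1 of 9 of the 12 arrays was left out, at adjusted p between 0.0622 and 0.122, and that of Slc25a16 when any 1 of 5 was left out, at 0.0699 to 0.112.

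Week differences within a diet were called for 2 carriers on CDAHFD, Slc25a51 and Slc25a4, where 3.08% of all genes were called, and for 5 carriers on the control diet, Slc25a27, Slc25a51, Slc25a3, Slc25a44 and Slc25a37, where 11.5% of all genes were called. The control call of Slc25a27 used signals of -8.28 and -8.93 at 1 week, neither well above background. At 2 and at 6 weeks 1 of its 2 control arrays was above background, so a change with age cannot be read from it. Slc25a51 moved in both diets. It read -1.43 and -1.13, -0.41 and -0.46, and -0.16 and -0.42 on CDAHFD arrays at 1, 2 and 6 weeks, with an adjusted p of 0.00941 (limma F test). Control values were -1.3 and -1.4, -0.48 and -0.36, and -0.66 and -0.63, with 0.00496. Both diets were thus lower at 1 week than later, and without CDAHFD replicate 1 at 1 week the adjusted p within CDAHFD was 0.0587. Without control replicate 1 at 1 week, the array that stood apart, Slc25a3, Slc25a44 and Slc25a37 were not called within the control diet, at adjusted p of 0.119, 0.21 and 0.09. The adjusted p of Slc25a4 over the weeks was 0.0403 on CDAHFD and 0.86 on the control diet, and the CDAHFD call ended when any 1 of 10 of the 12 arrays was left out, at 0.0542 to 0.316. The arrays of 6 weeks were on another slide than those of 1 and 2 weeks, so week 6 and slide cannot be told apart in these comparisons, while each weekly diet difference was taken within a slide.

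For 7 pairs of carriers with like substrates, the difference between the 2 signals was taken within each array and is given by diet. The pairs were chosen after their values were seen, so the differences are a description with no test. The level of such a difference depends on the 2 probes, and only its change with the diet can be read. Slc25a4 over Slc25a5 was higher in CDAHFD livers by 1.14 on average, between -2.4 and -1.91 on CDAHFD arrays and between -3.4 and -3.16 on control arrays. Slc25a24 over Slc25a23 was higher by 3.07, between 0.87 and 1.79 on CDAHFD arrays and between -1.81 and -1.36 on control arrays. These 2 ratios were separate between the diets on all arrays, and the weekly values were 1.04, 1.07 and 1.31 for the first pair and 2.93, 2.98 and 3.3 for the second. After normexp background correction the average differences were 1.01 for the first pair and 1.91 for the second.

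Slc25a36 over Slc25a33 differed by 1.35, with Slc25a36 above background on 2 of the 6 control arrays, and by -0.04 after normexp background correction. Slc25a14 over Slc25a30, Slc25a39 over Slc25a40 and Slc25a34 over Slc25a35 differed by -0.82, -0.38 and -0.69, and Slc25a37 over Slc25a28 by -0.02.

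**Figure D4:**
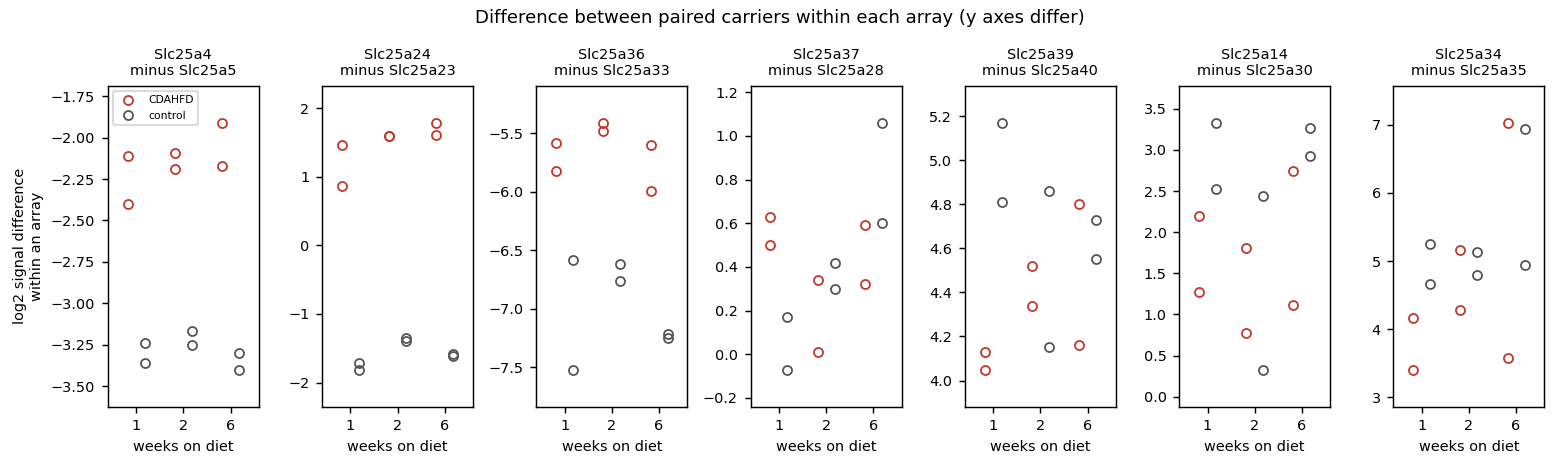
Difference in log2 signal between 2 carriers on the same array for the 7 pairs, by weeks on diet, with red circles for CDAHFD and grey circles for control arrays. The y axes differ between panels, and heights cannot be compared between pairs because they depend on the probes. The red and grey circles are separate on all arrays for Slc25a4 minus Slc25a5, Slc25a24 minus Slc25a23 and Slc25a36 minus Slc25a33, and they mix for the other pairs.

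Genes that work with the carriers were read from lists of the pathway. Of 4 measured relatives outside the Slc25a prefix, Ucp2 and Ucp3, uncoupling proteins, rose at each week, with average differences of 2.14 ± 0.11 and 2.34 ± 0.19 and adjusted p of 8.39e-08 and 2.91e-06 (limma), and Mtch1 and Mtch2, carrier-like proteins of the outer membrane, fell on average. Macrophages express Ucp2, and the macrophage sums above were higher on CDAHFD arrays, whose part in this difference was not tested. Of 16 genes of the import machinery that inserts carriers into the inner membrane, 1 rose and 4 fell on average, beside 35.6% of all genes called higher and 25.6% lower: Tomm5 rose by 0.31 ± 0.07 and Timm8b was -0.43 ± 0.06, with adjusted p of 0.000498 and 0.000279, and Agk, a subunit of the carrier translocase, differed by -0.13 ± 0.1. Among 16 other mitochondrial transporters 2 rose and 9 fell on average, beside the same shares of all genes, with Sfxn3, a sideroflexin, at 1.79 ± 0.1, Abcb10, a transporter of erythroid and liver mitochondria, at -1.08 ± 0.07, and the outer membrane channel Vdac1 at -0.47 ± 0.06. Of the 2 subunits of the pyruvate carrier, Mpc2 was -0.53 ± 0.08, with an adjusted p of 0.000599, and Mpc1 was 0.06 ± 0.06, with 0.0795.

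Among 10 enzymes that work with the citrate and malate carriers, 0 rose and 6 fell on average, beside 35.6% of all genes called higher and 25.6% lower. Me1, malic enzyme, was -1.55 ± 0.11, Gpd1, the glycerol phosphate shuttle enzyme of the cytosol, was -1.15 ± 0.08, and Acly, which splits exported citrate, was -1.04 ± 0.14, with adjusted p of 1.94e-06, 9.54e-07 and 0.000202 (limma). Got2, the mitochondrial aspartate aminotransferase, was -0.46 ± 0.11, with an adjusted p of 0.0122, and Mdh2, the mitochondrial malate dehydrogenase, was -0.17 ± 0.07, with 0.246. Of 8 measured genes often used to gauge mitochondrial content, 0 rose and 4 fell on average, beside those same shares, with a median of -0.32, and Phb2, a prohibitin of the inner membrane, was -0.44 ± 0.06, with an adjusted p of 0.000361. The median of the 37 carriers in the average was -0.19, and that of the 8 hepatocyte markers, all called lower, was -0.62.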

How the data were processed

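Liver RNA on 12 one-colour Agilent arrays was analysed. The deposited intensities are the processed signals of Agilent Feature Extraction, background-subtracted and detrended within each array per the file headers and not normalized between arrays. The version is 11.5.1.1 per the file headers and 10.7 per the submitters' processing notes.

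Control and outlier spots were left out and spots of a probe averaged. Each array was scaled to its 75th percentile over 20172 probes above background on every array, and log2 was taken with no floor or pseudocount. Accessions were named through the RefSeq gene table for 28664 of 55681 probes, and 27017 stayed unnamed. Among kept probes of a gene the one with the highest mean stood for it. limma 3.58.1 in R 4.3.3 (lmFit, eBayes with trend and robust, 6 group means, 6 residual degrees of freedom) tested all 13901 genes, with Benjamini-Hochberg adjustment and a threshold of 0.05, 2-sided. The script was tested on simulated data. Differences are printed minus the median over all genes, and calls come from the unshifted fit. Values of every array are given for carriers called with a 2-fold difference at any week and for Slc25a3 and Slc25a5. Promoters and tables were read in Python 3.11.15.

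Alternatives changed the scaling, background correction, filter, choice of probe, variance model, replicate block, controls and arrays used. The normexp alternative used the median spot signal. The members, lists and alternatives were chosen with earlier results of these data known, and the carrier pairs, their alternatives, those of the week counts and the left-out arrays for every carrier were added after seeing the data. Slide 1 held weeks 1 and 2 and slide 2 week 6, each with both diets. Values of 1 measured carrier are not reported here, though counts over the carriers include it.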

Additional observations from a re-analysis of the deposited data

Results flagged for a closer look

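A change of the diet difference of Slc25a27 between the weeks was called, with an adjusted p of 0.0284 in the limma F test. It was noted because the fitted difference of the same diet contrast differed between time points. Slc25a27 passed the filter on signal only through the CDAHFD groups, so this p-value is a description and no support. The call also ended with some single arrays left out, as given above. The fitted differences were 3.95 ± 0.27 at 1 week, 1.65 ± 0.27 at 2 weeks and 2.79 ± 0.27 at 6 weeks (SE, n = 2 per group). Signals averaged -4.53, -4.31 and -3.76 on CDAHFD arrays and -8.61, -6.02 and -6.58 on control arrays at 1, 2 and 6 weeks. The 2 control arrays of 1 week were not well above background, so that the fitted difference at 1 week depends on signals that bound the level only from above. After normexp background correction the adjusted p of the F test was 0.512.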

How the results depend on the processing

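The next counts cover only the carriers called with a 2-fold difference at any week, and Slc25a3 and Slc25a5. They say nothing of the other measured carriers. Of 492 values of these carriers under other processing, 458 kept their direction and their side of the threshold. Of the rest 14 lost the call, 12 gained it, 5 moved without a call and 3 reversed. Those reversed were Slc25a36 at 1 week, at -0.24 after normexp with an offset of 50, and the average of Slc25a5, at 0.15 after quantile and 0.08 after cyclic loess normalization. The ratio of Slc25a36 to Slc25a33 was -0.04 after normexp. The median carrier difference at 1 week was 0.03 after normexp and 0.04 with no filter on dim probes, then over 44 carriers. With the percentile over all probes 15 carriers were lower at 1 week and 13 at 2 weeks, where median centring gave 10 and a fit of only the 4 arrays of the week 11, against 4 lower at 6 weeks in that kind of fit. Normexp left 3 carriers higher at 1 week and 3 at 2 weeks. A filter asking for detection on all arrays kept 32 carriers, and Slc25a27 and Slc25a36 were not among them. It left 3, 3, 2 and, in the average, 3 higher. Both left 0 with a change between weeks, and the filter had left out Slc25a27, the carrier called for it above. Week differences within the control diet were called for 2 carriers after quantile normalization and for 3 each after normexp, with the mean of the probes of a gene and without trend and robust fitting. Those within CDAHFD were called for 1 after normexp, with no filter and without trend and robust fitting. A difference at 6 weeks other than at 1 week was called for 1 carrier after normexp, 1 with no filter and 0 without trend and robust fitting. Apart from the carriers that the filter on all arrays left out, the cause of these changes was not tested.

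With each array left out in turn, 3 to 6 carriers were higher and 4 to 10 lower at 1 week, 3 to 5 and 2 to 9 at 2 weeks, 4 to 7 and 5 to 9 at 6 weeks, and 5 to 7 and 11 to 17 in the average. The change between weeks was called for 0 to 4 carriers, week differences within CDAHFD for 0 to 5 and within control for 2 to 8, and a difference at 6 weeks other than at 1 week for 0 to 6.

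Same-numbered arrays of the 2 diets deviated together with correlations of -0.0469, 0.175 and 0.107 at 1, 2 and 6 weeks, so the numbers were not taken as pairs. With the replicate number as a block 5 carriers were higher and 7 lower at 1 week and 5 and 6 at 2 weeks, and 1 carrier each was called within CDAHFD and at 6 weeks other than at 1 week. Slc25a44 at 2 weeks then had an adjusted p of 0.0382.

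The limits are few arrays, 2 per group, and dim signal. Of the 44 carriers 7 were not above background on any array, Slc25a35 was above it on 6 arrays, and Slc25a27 and Slc25a36 on 8 each. Carriers with a further kept probe gave differing calls for Slc25a3, Slc25a25, Slc25a32, Slc25a37, Slc25a44, Slc25a46 and Slc25a51.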
